A study of Mus musculus with 6 samples.

Results

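The genes described here encode the subunits of the transcription factor AP-1 and the products of 3 other immediate early genes. They were taken by symbol from the gene table: the FOS subunits Fos, Fosb, Fosl1 and Fosl2, the JUN subunits Jun, Junb and Jund, and Egr1, Atf3 and Btg2. All 10 symbols were found among 22838 genes, and 7 of them passed a filter on low values (at least 1 FPKM in at least 3 libraries) that 12006 genes passed. Their transcripts were read in bone marrow of the tibia and femur from 3 wild-type mice and 3 Cbx2-/- mice, all 3 weeks old and of a mixed 129/C57BL/6 strain. The labels give group means of body weight, 12.3 g for wild-type and 4.0 g for Cbx2-/- animals. Cbx2 encodes a Polycomb protein, and the labels describe neither its allele nor the sex of the animals. The series title asks how Cbx2 acts on bone-forming and fat cell differentiation in long bones after birth.

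AP-1 is a dimer of basic leucine zipper proteins. JUN proteins pair with each other or with FOS proteins, whereas FOS proteins need a JUN partner to bind DNA. Immediate early genes are transcribed within minutes of a growth factor, cytokine or stress signal without new protein synthesis, and most of their transcripts decay quickly. In marrow, FOS proteins are required for osteoclast formation, FOS and JUN subunits act in osteoblasts, and JUNB restrains the growth of myeloid cells.

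The levels are FPKM, that is, fragments per kilobase of transcript scaled to the mapped fragments of the library. Levels of different genes were set side by side on this scale, and whether other differences between transcripts affect them was not tested. The steps between low values put the depth at about 12450000 (wild-type replicate 2) to 16600000 (Cbx2-/- replicate 1) fragments, an approximate estimate. At this depth the values of Fosl1 stand for about 0 to 4 fragments, those of Fosb for 1 to 13 and those of Atf3 for 14 to 29. The values of Fos stand for about 77 to 461 fragments and those of Btg2 for 1025 to 2959. Cbx2 itself was at 2.90, 3.83 and 2.75 FPKM in wild-type and 2.11, 1.87 and 1.88 FPKM in Cbx2-/- libraries, lower in every Cbx2-/- library without reaching the threshold (limma adjusted p = 0.0558). Whether these reads lie in the part of Cbx2 that the allele changes is not stated in the labels. Cbx2-/- replicates 1 and 2 held skeletal muscle transcripts, with 9 marker genes summing to 397 and 451 FPKM against 13.6 FPKM in replicate 3 and 23.2 to 34.6 FPKM in wild-type libraries. In bulk marrow, fewer cells of a type and less RNA per cell cannot be told apart, and this holds for every difference below.

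The 3 members that passed the test below are shown first by the 250 bases before their RefSeq start (GRCm38.p6), since these stretches hold the promoter. Capitals mark matches to TGACG, the core of the cAMP response element, to TATAAA and to CCAAT on either strand.
Fos (chr12:85473640-85473889, plus strand): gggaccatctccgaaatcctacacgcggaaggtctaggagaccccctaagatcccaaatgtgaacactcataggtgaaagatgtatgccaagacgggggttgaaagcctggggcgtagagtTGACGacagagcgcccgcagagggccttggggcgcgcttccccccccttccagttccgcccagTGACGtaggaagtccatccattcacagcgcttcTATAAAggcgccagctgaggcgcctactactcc
Junb (chr8:84978749-84978998, minus strand): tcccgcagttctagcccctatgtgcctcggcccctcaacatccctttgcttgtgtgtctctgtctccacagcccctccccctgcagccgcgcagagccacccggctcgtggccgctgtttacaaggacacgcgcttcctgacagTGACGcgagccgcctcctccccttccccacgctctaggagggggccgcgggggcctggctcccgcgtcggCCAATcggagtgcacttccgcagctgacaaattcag
Btg2 (chr1:134079156-134079405, minus strand): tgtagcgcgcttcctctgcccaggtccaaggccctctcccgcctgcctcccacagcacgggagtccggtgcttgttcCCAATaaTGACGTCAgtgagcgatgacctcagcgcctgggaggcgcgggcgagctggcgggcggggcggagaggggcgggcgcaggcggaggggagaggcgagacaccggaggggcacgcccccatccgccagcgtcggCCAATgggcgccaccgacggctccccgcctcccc

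RefSeq promoters of 8 of the 10 members were searched, and those of Fosl1 and Egr1 were not. The core TGACG was found in 5 of the 8 members (Fos, Fosb, Junb, Atf3 and Btg2), and in 17.8% of all 32851 promoter windows of this length. Fos held it 2 times, with the match nearer the start at -66 to -62, and Junb at -106 to -102, counted from the base before the start as -1. Btg2 alone among the 8 held the complete element TGACGTCA, at -166 to -159, which contains the core on each strand and was found in 1.55% of all windows. TATAAA was found in Fos, at -33 to -28, and in 12.4% of all windows, and CCAAT in Jun, Junb and Btg2 and in 33.8% of all windows. The AP-1 element TGANTCA, the EGR element GCGTGGGCG and the CArG box matched none of the 8 windows, against 6.75%, 0.536% and 1.47% of all windows. Sequence beyond these 250 bases was not searched, so elements further from the start would be missed. The G and C content was 58.4% in Fos, 66.4% in Junb and 73.2% in Btg2, against a median of 52.4% over all windows.

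Fos was the member that rose most. It encodes the prototype FOS subunit and lies on the plus strand of chromosome 12 at 85473890 to 85477273 (GRCm38, GENCODE). Its level was 3.06, 3.26 and 4.21 FPKM in wild-type and 14.6, 8.18 and 15.2 FPKM in Cbx2-/- replicates 1, 2 and 3. The groups did not overlap, and replicate 2 was the lowest Cbx2-/- library. The mean rose 3.61-fold, being 3.51 ± 0.614 and 12.6 ± 3.88 FPKM (SD, n = 3 each). On the log2(FPKM + 1) scale the difference was 1.56 ± 0.23 (SE, limma adjusted p = 0.00493). The call held in each of the 6 fits that left out 1 library, with an adjusted p of 0.00121 to 0.0299. The 3' UTR of Fos is a known AU-rich instability region, and its annotated sequence held 4 copies of ATTTA in 815 bases. It also held 1 copy of the longer element TTATTTATT, which 6.92% of 10869 tested genes with an annotated 3' UTR held. Fosl2 was the only other member with that element, and both sites are shown on GRCm38 with the element in capitals.
Fos site (chr12:85477103-85477131, plus strand): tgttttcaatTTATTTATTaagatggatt
Fosl2 site (chr5:32156871-32156899, plus strand): atttattttaTTATTTATTttaaatgttt

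Among the other FOS subunits, Fosl2 was the most abundant and 2 were barely detected. Fosl2, which encodes the FOS subunit FRA-2, was at 7.59, 10.6 and 7.5 FPKM in wild-type and 10.8, 8.25 and 17.5 FPKM in Cbx2-/- libraries. The groups overlapped, with Cbx2-/- replicate 3 above all others, and the difference of 0.42 ± 0.26 (log2, SE) did not pass (limma adjusted p = 0.314). Fosb, whose product is a FOS subunit best known from neurons and bone, was at 0.11, 0.0939 and 0.0224 FPKM in wild-type and 0.164, 0.252 and 0.246 FPKM in Cbx2-/- libraries. These values lay apart but were under the filter, and with no filter the difference of Fosb had a limma adjusted p of 0.0722. Fosl1, the gene of the FOS subunit FRA-1, was listed at 0 in wild-type replicate 2 and Cbx2-/- replicate 1 and reached at most 0.171 FPKM, so a difference was not detectable at this depth.

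Junb rose and its paralog Jund was lower in each Cbx2-/- library. Junb, the gene of a JUN subunit that is a weaker activator than JUN at many sites, lies on the minus strand of chromosome 8 at 84974484 to 84978718. It was at 28.9, 30.1 and 25.6 FPKM in wild-type and 47.9, 40.8 and 45.8 FPKM in Cbx2-/- libraries. The mean rose 1.59-fold, a difference of 0.65 ± 0.15 (log2, SE, limma adjusted p = 0.0209), with separate groups. This call was lost when wild-type replicate 1, 2 or 3 or Cbx2-/- replicate 1 was left out (limma adjusted p = 0.0845, 0.0701, 0.0968 and 0.0819), with a difference of 0.59 to 0.72 in the 6 fits that left out 1 library. It was also lost with haemoglobin genes removed (limma adjusted p = 0.0697). In GENCODE, the 3' side of Junb overlaps Prdx2 (84969587 to 84974834, plus strand), which fell from 2265 ± 256 to 887 ± 475 FPKM (SD, n = 3 each, limma adjusted p = 0.0378), while the Junb locus in the deposited table starts at 84976909 and does not reach Prdx2.

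Jund encodes the JUN subunit present in most resting cells and was the most abundant AP-1 gene in wild-type marrow. Its level was 51.3, 58.7 and 58.8 FPKM in wild-type and 44.4, 36.9 and 44.9 FPKM in Cbx2-/- libraries. The groups did not overlap, but the difference of -0.41 ± 0.15 (log2, SE) did not pass (limma adjusted p = 0.108). Without Cbx2-/- replicate 3 it was -0.46 and passed (limma adjusted p = 0.0283). Jun, the gene of the founding JUN subunit c-Jun, was at 4.67, 5.71 and 3.41 FPKM in wild-type and 5.98, 4.42 and 10.4 FPKM in Cbx2-/- libraries. The groups overlapped, Cbx2-/- replicate 3 was the highest, and the difference of 0.45 ± 0.28 (log2, SE) did not pass (limma adjusted p = 0.31). Jun and Jund each overlap an antisense gene in GENCODE (Junos and Gm11175), and Fosl1 overlaps Ccdc85b on the other strand. Whether strand was used in making the FPKM values is not stated in the labels, so reads of each such pair may not be told apart.

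Btg2 was the member that fell. It encodes an antiproliferative partner of the CCR4-NOT deadenylase, is a p53 target as well as an immediate early gene, and lies on the minus strand of chromosome 1 at 134075170 to 134079120. Its level was 77.8, 86.1 and 70.3 FPKM in wild-type and 24.3, 30.1 and 33.6 FPKM in Cbx2-/- libraries. Each Cbx2-/- library was below the lowest wild-type library. The mean was 2.66-fold lower, at 78.0 ± 7.89 and 29.3 ± 4.69 FPKM (SD, n = 3 each), and the difference was -1.39 ± 0.17 (log2, SE, limma adjusted p = 0.00268). The call held in each of the 6 fits that left out 1 library, with an adjusted p of 0.000326 to 0.0194.

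Egr1 and Atf3 did not pass. Egr1, a zinc finger factor gene induced through serum response factor, was at 4.14, 4.51 and 3.64 FPKM in wild-type and 4.37, 1.93 and 7.28 FPKM in Cbx2-/- libraries. The lowest and the highest of the 6 values were both in Cbx2-/- libraries, replicates 2 and 3, and the difference was -0.01 ± 0.33 (log2, SE, limma adjusted p = 0.994). Atf3, a stress-induced basic leucine zipper factor gene that can pair with JUN, was at 0.593, 0.701 and 0.931 FPKM in wild-type and 0.964, 0.959 and 1.06 FPKM in Cbx2-/- libraries. It was under the filter, and with no filter the difference had a limma adjusted p of 0.243.

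**Figure D1:**
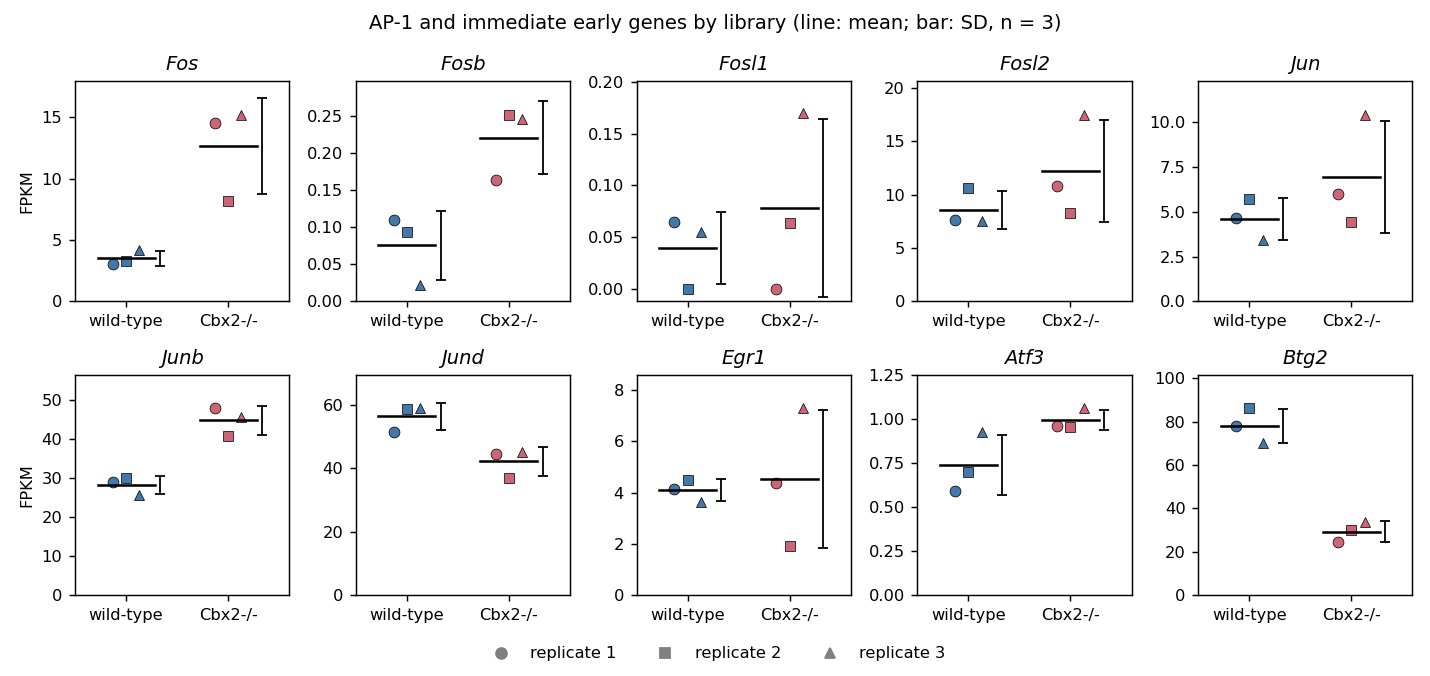
Each panel plots the FPKM of 1 member in the 6 libraries, with a line at the mean and a bar of SD (n = 3) for each genotype. The groups lay apart for Fos, Fosb, Junb, Jund, Atf3 and Btg2, and replicate 3 was the highest Cbx2-/- library for Fos, Fosl1, Fosl2, Jun, Jund, Egr1, Atf3 and Btg2.

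Of the 7 tested members, 2 rose and 1 fell at a limma adjusted p under 0.05, adjusted by Benjamini-Hochberg across the 12006 genes tested. Over all tested genes, 8.8% rose and 8.31% fell, which is 1057 and 998 genes. The groups did not overlap for 4 of the tested members, against 39.6% of all tested genes: Fos and Junb were higher (21.4% of all tested genes) and Jund and Btg2 lower (18.2%). For each of these, as for Fosb and Atf3, the two-sided p of an exact permutation over libraries was 0.1, and with 3 libraries a side it cannot be smaller. The number of tested members that rose was 1 when wild-type replicate 1, 2 or 3 or Cbx2-/- replicate 1 was left out, since Junb was lost. The members did not share a direction.

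**Figure D2:**
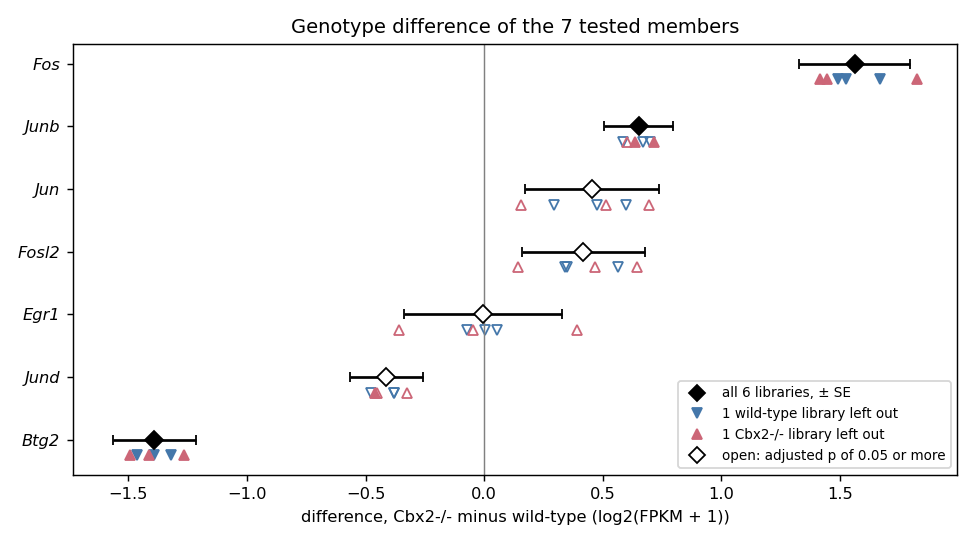
Differences between the genotypes on the log2(FPKM + 1) scale for the 7 tested members, with SE for all 6 libraries as diamonds and the fits without 1 library as triangles. Filled symbols passed a limma adjusted p of 0.05: Fos and Btg2 passed in every fit shown, and Jund passed only without Cbx2-/- replicate 3.

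Cbx2-/- replicate 3 held the highest value of several members. Of the 7 tested members, 4 had their highest value there (Fos, Fosl2, Jun and Egr1), as had 26% of all tested genes. For Fos, replicate 1 (14.6 FPKM) was close to replicate 3 (15.2 FPKM). With both muscle-bearing Cbx2-/- libraries left out, in a fit where replicate 3 alone stands for the genotype and is assumed to vary like wild-type libraries, Fosl2, Jun and Egr1 were called higher as well, with differences of 0.97, 1.05 and 0.70 (limma adjusted p = 0.00887, 0.0102 and 0.0144). Fos, Junb and Btg2 were called in that fit too.

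The genotypes did not overlap in the shares of Fos and Fosl2 in their family, nor in those of Junb and Jund in theirs. The summed level of the 4 FOS subunits was 10.8, 13.9 and 11.8 FPKM in wild-type and 25.5, 16.7 and 33.1 FPKM in Cbx2-/- libraries, 2.06-fold higher on average. The summed level of the 3 JUN subunits was 84.9, 94.4 and 87.8 FPKM in wild-type and 98.3, 82.2 and 101 FPKM in Cbx2-/- libraries, with overlapping groups. The JUN sum was 6.78 to 7.84 times the FOS sum in wild-type and 3.05 to 4.91 times in Cbx2-/- libraries.

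Within the FOS family, Fos made up 28.3%, 23.4% and 35.7% of the summed FPKM in wild-type and 57.1%, 48.9% and 45.9% in Cbx2-/- libraries, and nearly all of the rest was Fosl2. Within the JUN family, Junb made up 34.1%, 31.8% and 29.1% in wild-type and 48.8%, 49.7% and 45.3% in Cbx2-/- libraries. The Jund share was 60.4%, 62.1% and 67% in wild-type and 45.2%, 45.0% and 44.4% in Cbx2-/- libraries. The FPKM of Jund was thus 1.77 to 2.30 times that of Junb in wild-type and 0.905 to 0.982 times in Cbx2-/- marrow. Junb had the higher FPKM of the pair in each Cbx2-/- library, narrowly so in replicate 3 (45.8 against 44.9 FPKM). For the shares of Fos, Fosl2, Junb and Jund, the two-sided p of an exact permutation was 0.1, the smallest possible here, with 7 shares compared in all. The shares of a family sum to 100% and are not independent.

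**Figure D3:**
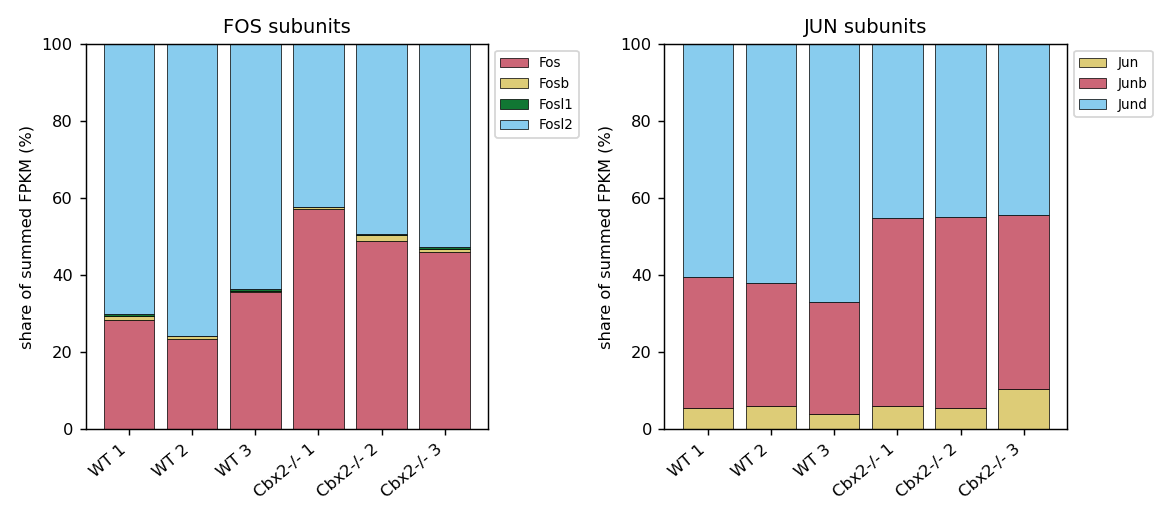
Stacked bars give each subunit's share of the summed FPKM of its family in percent, for the 4 FOS subunits and the 3 JUN subunits, by library (WT, wild-type). The Fos share was at most 35.7% in wild-type and at least 45.9% in Cbx2-/- libraries, and the Junb share at most 34.1% and at least 45.3%.

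The order of mean levels in wild-type marrow was Btg2, Jund, Junb, Fosl2, Jun, Egr1, Fos, Atf3, Fosb and Fosl1. The values of Jun, Egr1 and Fos overlapped between neighbours in this order, as did those of Fosb and Fosl1. In Cbx2-/- marrow the order was Junb, Jund, Btg2, Fos, Fosl2, Jun, Egr1, Atf3, Fosb and Fosl1, with overlapping values for Junb and Jund, for Fos and Fosl2, for Fosl2 and Jun, for Jun and Egr1, and for Fosb and Fosl1. Over all 6 libraries, Btg2 stood at the 88th percentile of mean level among tested genes, Jund at the 87th, Junb at the 82nd, Fos at the 44th and Egr1 at the 27th.

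Marker genes of several lineages moved with the genotype, and their part in the results above was not tested. Over all tested genes, 8.8% rose and 8.31% fell. Of 13 tested neutrophil markers, 6 rose and 0 fell, and the list summed to 39009 to 44143 FPKM in wild-type and 58716 to 86407 FPKM in Cbx2-/- libraries. Of 14 monocyte and macrophage markers, 5 rose and 0 fell (955 to 1052 and 1408 to 1750 FPKM). All 12 markers of B cell precursors fell (1030 to 1296 and 113 to 220 FPKM), and 10 of 12 erythroid markers fell (3509 to 4201 and 1564 to 2216 FPKM). Of 11 osteoblast markers, 7 fell (9564 to 15964 and 1042 to 1860 FPKM). Of 8 tested adipocyte markers, 7 rose (210 to 414 and 2048 to 2652 FPKM), and 6 of 10 endothelial markers rose (85.0 to 92.3 and 148 to 200 FPKM). Of 10 tested T and NK cell markers, 3 fell and 0 rose (45.4 to 70.1 and 29.4 to 71.2 FPKM). No marker in these lists was at 0 in all libraries.

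Among other immediate early genes, more rose than fell. Of 34 genes, 29 were tested, of which 8 rose and 2 fell, against 8.8% and 8.31% of all tested genes. The median difference was 0.31 (log2) against 0.02 over all tested genes. Of the 29 genes, 18 had their highest value in Cbx2-/- replicate 3, against 26% of all tested genes. Ier3, an apoptosis and stress response gene, rose 2.64-fold, from 5.13 ± 1.26 to 13.5 ± 2.11 FPKM (SD, n = 3 each, limma adjusted p = 0.00461). Socs3, the cytokine signalling inhibitor gene, rose 2.45-fold, and both calls held in the 6 fits that left out 1 library.

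Genes with a strong replicate 3 were among these rises. Ctgf, which encodes a secreted matrix-associated growth factor regulator and is expressed by stromal cells and endothelium, was at 7.52, 17.5 and 16.9 FPKM in wild-type and 90.5, 49.8 and 267 FPKM in Cbx2-/- libraries (limma adjusted p = 0.0133, lost without wild-type replicate 1). Maff, a small MAF basic leucine zipper gene, was at 0.412, 0.667 and 0.681 FPKM in wild-type and 2.87, 2.35 and 7.90 FPKM in Cbx2-/- libraries. It reached 1 FPKM only in Cbx2-/- libraries, so it passed the filter through that group alone. Ctgf and Maff had separate groups, with the highest value in replicate 3. Sgk1, a serum- and glucocorticoid-induced kinase gene, and Klf6, a zinc finger factor gene, showed the same order of Cbx2-/- libraries and rose 2.24-fold and 2.14-fold. Plk3, a stress kinase gene, and Gadd45b, a growth arrest gene, rose 1.75-fold and 1.45-fold.

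The falls in this set were Dusp2 and Nr4a2. Dusp2, the gene of a nuclear MAP kinase phosphatase of lymphoid and myeloid cells, was at 25.4, 29.4 and 35.0 FPKM in wild-type and 9.54, 8.36 and 10.7 FPKM in Cbx2-/- libraries (limma adjusted p = 0.00145). Nr4a2, an orphan nuclear receptor gene, fell from 1.71 ± 0.532 to 0.531 ± 0.0935 FPKM (SD, n = 3 each). It reached 1 FPKM only in wild-type libraries, so it passed the filter through that group alone. Several calls of the set did not hold when single libraries were left out: Sgk1 and Maff without wild-type replicate 1, 2 or 3, Klf6 without these or Cbx2-/- replicate 1, Plk3 without wild-type replicate 2 or 3 or Cbx2-/- replicate 1, Nr4a2 without wild-type replicate 1 or 2 or Cbx2-/- replicate 1, and Gadd45b in every such fit but the one without Cbx2-/- replicate 3. In each fit without 1 wild-type library 3 genes of the set rose, 5 without Cbx2-/- replicate 1 and 12 without Cbx2-/- replicate 3. Of all 12006 tested genes, 367 to 391 rose without 1 wild-type library, against 1057 with all 6 libraries. Without Cbx2-/- replicate 1, 543 rose, and without Cbx2-/- replicate 3, 2069 rose. With haemoglobin genes removed, 5 genes of the set rose, as did 596 of all 12005 tested genes. With no filter on low values 7 of the set rose and 2 fell, as did 882 and 910 of all 18108 tested genes.

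**Figure D4:**
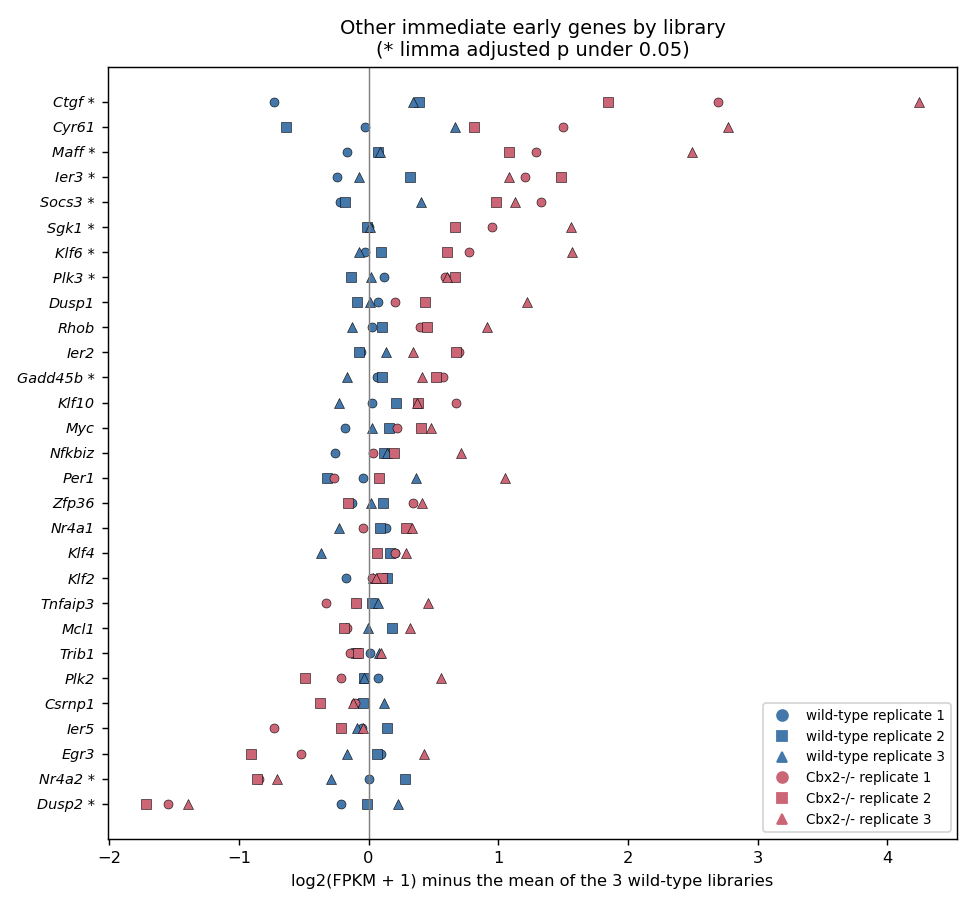
The log2(FPKM + 1) of the 29 tested immediate early genes outside the members is plotted for each library relative to the mean of the 3 wild-type libraries. An asterisk marks the 10 genes past a limma adjusted p of 0.05. Of the 29 genes, 18 had their highest value in Cbx2-/- replicate 3, against 26% of all tested genes.

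Serum response factor, with its cofactors, drives many immediate early promoters. None of the 6 tested genes of this list passed limma's adjusted p, while 2 had an unadjusted p under 0.05 (Srf and Mkl1). Srf was at 13.1 ± 1.79 and 18.7 ± 2.04 FPKM and its coactivator gene Mkl1 at 18.6 ± 1.66 and 26.7 ± 3.31 FPKM (SD, n = 3 each, limma adjusted p = 0.0655 and 0.0606). Both had separate groups, as had Mkl2 (1.39 ± 0.257 and 2.02 ± 0.404 FPKM) and Elk1 (2.43 ± 0.19 and 2.89 ± 0.105 FPKM). All 4 were higher in Cbx2-/- libraries. Over all tested genes, 21.4% had separate groups with higher Cbx2-/- values. Without Cbx2-/- replicate 3, 2 genes of the list were called higher, as were 2069 of all 12006 tested genes, against 1057 with all 6 libraries.

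Of 23 MAP kinase module genes, 4 rose and 3 fell, against 8.8% and 8.31% of all tested genes. The median difference of this list was 0.23 (log2), against 0.02 over all tested genes. Mapkapk3, a kinase gene downstream of p38, rose from 19.6 ± 4.02 to 43.8 ± 2.91 FPKM (SD, n = 3 each, limma adjusted p = 0.00528), a call that held in each fit without 1 library. Map3k8, a kinase gene that drives ERK after Toll-like receptor signals, rose 2.48-fold, and Mapk7 (ERK5) and Rps6ka1 (an ERK-activated kinase gene) rose 1.59-fold and 1.48-fold. The p38 activator genes Map2k3 and Map2k6 fell, 1.6-fold and 2.06-fold, and Map3k1 fell 1.57-fold. The 3 falls were lost without wild-type replicate 1, 2 or 3 or Cbx2-/- replicate 1, and 2 of the 3 other rises (Mapk7 and Rps6ka1) likewise. Map3k1 and Rps6ka1 were also lost without Cbx2-/- replicate 2, and Map3k8 without wild-type replicate 1 or 3. The rises numbered 1 or 2 in each of the fits without a wild-type library or Cbx2-/- replicate 1, and 8 without Cbx2-/- replicate 3. Of all 12006 tested genes, 367 to 543 rose in the former fits and 2069 in the latter, against 1057 with all 6 libraries.

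Dual-specificity phosphatase genes, whose products switch MAP kinases off, moved downward where they passed. Of 9 tested genes, 3 fell and 0 rose, against 8.31% and 8.8% of all tested genes. Beside Dusp2, Dusp5 was at 4.14, 5.27 and 5.50 FPKM in wild-type and 0.836, 1.37 and 2.37 FPKM in Cbx2-/- libraries (limma adjusted p = 0.00937), and Dusp8 fell 1.76-fold, a call lost in every fit without 1 library except that without Cbx2-/- replicate 3. Dusp1, the immediate early member of this family, was at 22.4 ± 1.32 and 36.7 ± 14.8 FPKM (SD, n = 3 each, limma adjusted p = 0.139) and was highest in Cbx2-/- replicate 3.

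Among 23 tested basic leucine zipper genes whose products pair or compete with AP-1, 3 rose and 2 fell. The shares over all tested genes were 8.8% and 8.31%. The median difference was 0.045 (log2) in this list, against 0.016 over all tested genes. Bach2, a repressor gene of B and T lymphocytes, was at 7.76, 7.93 and 9.17 FPKM in wild-type and 0.927, 0.492 and 1.89 FPKM in Cbx2-/- libraries, 7.52-fold lower (limma adjusted p = 0.00145). Ddit3, the stress factor gene also called Chop, fell from 38.4 ± 1.7 to 21.1 ± 1.02 FPKM (SD, n = 3 each). Jdp2, the gene of a JUN dimerization partner that represses AP-1, rose 1.64-fold and Cebpd 1.7-fold, both calls being lost without wild-type replicate 1, 2 or 3. The rises in this list numbered 1 in each of those fits, and without Cbx2-/- replicate 3, 6 genes fell. Of all 12006 tested genes, 367 to 391 rose in those fits, against 1057 with all 6 libraries. Without Cbx2-/- replicate 3, 1719 fell, against 998 with all 6 libraries.

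Textbook AP-1 target genes were mixed in direction as well. Of 14 tested genes, 4 rose and 1 fell, against 8.8% and 8.31% of all tested genes, with a median difference of 0.61 (log2). Plau and Plaur, the genes of urokinase and its receptor, rose 2.75-fold and 1.89-fold (limma adjusted p = 0.00943 and 0.0072), and Hmox1, a haem oxygenase gene of macrophages, rose 2.46-fold. Mmp9, which is also a neutrophil granule gene and one of the neutrophil markers above, rose 1.71-fold, a call lost without wild-type replicate 1, 2 or 3 or Cbx2-/- replicate 1. Timp1, the gene of a secreted metalloprotease inhibitor, fell from 26.1 ± 4.14 to 6.91 ± 0.393 FPKM (SD, n = 3 each, limma adjusted p = 0.000652). Without Cbx2-/- replicate 3, 8 of the list rose, as did 2069 of all 12006 tested genes, against 1057 with all 6 libraries.

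Of the relatives of Btg2, Btg1, Btg3, Tob1 and Tob2 were tested and none passed limma's adjusted p or an unadjusted p under 0.05, and Btg4 was listed at 0 in all libraries. Btg1, also an antiproliferative gene, was at 39.3 ± 7 and 29.1 ± 6 FPKM (SD, n = 3 each, limma adjusted p = 0.19). Without Cbx2-/- replicate 3, 1 of these genes was called lower, as were 1719 of all 12006 tested genes, against 998 with all 6 libraries. Of 16 p53 target genes, Perp rose, from 0.745 ± 0.0461 to 1.66 ± 0.0905 FPKM, and 0 fell, with a median difference of -0.04 (log2). Over all tested genes, 8.8% rose and 8.31% fell. Perp reached 1 FPKM only in Cbx2-/- libraries, so it passed the filter through that group alone. The Perp call was lost without wild-type replicate 1, 2 or 3 or Cbx2-/- replicate 1. Without Cbx2-/- replicate 3, 2 of the list rose and 4 fell, as did 2069 and 1719 of all 12006 tested genes. Gtse1 (23.2 ± 0.658 and 14.2 ± 4.78 FPKM) and Sesn2 (7.85 ± 1.12 and 5.95 ± 0.377 FPKM) had separate lower groups and did not pass. Aen (10.9 ± 0.933 and 15.5 ± 3.75 FPKM) and Zmat3 (0.892 ± 0.203 and 1.42 ± 0.367 FPKM) had separate higher groups and did not pass. With Perp, 3 of the list had separate higher groups and 2 separate lower groups, against 21.4% and 18.2% of all tested genes. Cdkn1a, the p53 target and cell cycle inhibitor gene, was at 17 ± 4.76 and 12.5 ± 5.6 FPKM.

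AU-rich elements and deadenylation set how fast immediate early transcripts decay. None of 15 tested AU-rich element and deadenylation genes passed limma's adjusted p, while 3 had an unadjusted p under 0.05. These were the decay factor gene Zfp36l2, at 55.9 ± 7.6 and 85 ± 17.3 FPKM, and the deadenylase genes Cnot7, at 12 ± 0.854 and 15.9 ± 1.48 FPKM, and Cnot8, at 36.7 ± 2.08 and 28.4 ± 1.89 FPKM (SD, n = 3 each). Elavl1, the gene of the stabilizing protein HuR, was at 12.3 ± 1.56 and 9.37 ± 2.45 FPKM. Without Cbx2-/- replicate 3, 2 genes of this list were called higher, as were 2069 of all 12006 tested genes, against 1057 with all 6 libraries. The EGR corepressor genes Nab1 (5.17 ± 0.571 and 6.46 ± 1.66 FPKM) and Nab2 (3.64 ± 0.1 and 3.71 ± 1.91 FPKM) did not pass limma's adjusted p, and neither had an unadjusted p under 0.05.

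Heat shock genes encode chaperones that respond to other kinds of stress. Of 14 tested genes, 0 rose and 4 fell (limma), against 8.8% and 8.31% of all tested genes, with 1 higher at an unadjusted p under 0.05. Hspa4l and Dnajb4 fell 1.91-fold and 2.08-fold, and Hsph1 was at 34.4, 43.3 and 14.5 FPKM in wild-type and 11.4, 8.12 and 9.22 FPKM in Cbx2-/- libraries. Dnajb1 fell 1.87-fold. These falls numbered 0 without wild-type replicate 1 or 2 and 1 without Cbx2-/- replicate 1.

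Among the 8 genes whose pattern over the 6 libraries was most like the mean of the 7 tested members were Gpatch2l, Klf13, Sbno1, Tgfbr1, Gda, Smek2 and Mbtd1. The Pearson r of the 8 with that mean on the log2 scale was 0.971 to 0.982, the highest among 7932 genes with a mean of at least 5 FPKM, and describes 6 points only. That mean was 3.84, 4.02 and 3.80 in wild-type and 4.07, 3.71 and 4.42 in Cbx2-/- libraries (log2(FPKM + 1)), with overlapping groups and the highest value in replicate 3, a shape that the 8 genes share because they were picked for it.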

How the data were processed

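RNA of tibial and femoral bone marrow was read from stranded poly(A) libraries with 50-base single-end reads, per the labels' protocols. Per the submitters' processing notes, the tools were FastQC 0.11.5, TopHat2 2.1.0 and Cufflinks 2.2.1 and the build mm10, with no settings given. The labels describe 3 separate mice a genotype. The authors deposited 1 FPKM value per gene and library. No counts were used, so depth was estimated from the whole-fragment steps of genes under 0.5 FPKM with a single transcript. Genes that reached 1 FPKM in 3 or more libraries were tested as log2(FPKM + 1) by limma 3.58.1 under R 4.3.3 (mean-variance trend, two-sided, Benjamini-Hochberg over all tested genes, no block or covariate), checked on simulated data. On this scale the change of a low gene is understated. Members and gene lists were chosen with earlier results of these data known. From each list, the 4 tested genes with the lowest p, and every call where there were at most 6, set the genes to name. Cdkn1a, Zmat3, and the calls beyond the first 4 of the immediate early and MAP kinase lists, were named after their values were seen. Positions and 3' UTRs are from GENCODE vM21, promoters from RefSeq. Figures were drawn with matplotlib 3.10.9. Some genes that this rule names are not reported here.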

Additional observations from a re-analysis of the deposited data

How the results depend on the processing

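Across the alternatives tried (pseudocounts, filters, scalings, no trend, a block, a covariate for Y-linked transcripts, and libraries left out), Fos and Btg2 kept their direction and call in all 17. Junb kept its direction in all 17 and its call in 11. Leaving out 1 library gave 367 to 2069 higher and 475 to 1719 lower genes, 1 to 2 higher and 1 to 2 lower members, a difference in the Fos share of 18.3 to 24.8 percentage points, in the Junb share of 14.9 to 17.5 and in the Jund share of -19.7 to -16.4. With haemoglobin genes removed, 596 genes were higher and 985 lower, so 37.7% of the calls were higher against 51.4% as reported, and 1 member rose. With the replicate block, 634 genes were higher and 734 lower, and 1 member rose, since Junb did not pass (limma adjusted p = 0.0706). With both muscle-bearing Cbx2-/- libraries left out, 2047 genes were higher and 2714 lower, and 5 members rose. The difference of Egr1 ranged from -0.36 to 0.39 when 1 library was left out. It turned above 0 with haemoglobin genes removed (0.0014), without wild-type replicate 1 (0.0031) or 2 (0.052), without Cbx2-/- replicate 2 (0.39) and with both muscle-bearing libraries left out (0.70). The cause of these changes was not tested, and some of the fits held fewer libraries. Deviations of same-numbered libraries from their group means correlated at 0.19, -0.18 and -0.10, and not every library correlated best with its own number. With 3 libraries a group, whose deviations depend on each other, these values cannot decide whether the numbers pair the animals. Depth limits Fosl1, Fosb and Atf3. With 3 libraries a group, no exact permutation test can go below 0.1.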
